A study of Mus musculus with 2 samples.

Results

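The Gata genes encode the 6 GATA transcription factors of the mouse, Gata1 to Gata6. They were chosen as the rows of the deposited gene table whose symbol is Gata1, Gata2, Gata3, Gata4, Gata5 or Gata6, which gave 6 genes of 31053. That rule uses no measured value, but the members were chosen with earlier results of these data known. The study profiled single cells of C57BL/6 mouse embryos with droplet-based 3′ RNA sequencing, in 1 library from E10.5 and 1 from E11.5. Each library held cells of the dorsal aorta, the tissue around it and the fetal liver, dissociated with enzymes and not told apart afterwards. The labels name no sort, mutation or treatment, and the number of embryos pooled per library was not given in the sources used here. With 1 library per stage, a difference between E10.5 and E11.5 is a difference between 2 libraries and has no replicate check.

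GATA factors bind DNA through zinc fingers, each folded around a zinc ion by cysteines, and recognise the sequence GATA. The family falls into a group known for blood, endothelium, neurons and lymphocytes (Gata1, Gata2, Gata3) and a group known for heart, gut, liver and gonad (Gata4, Gata5, Gata6). In the blood lineage Gata2 is known for its role in stem and progenitor cells and Gata1 for red cells, megakaryocytes and mast cells, and the FOG cofactors Zfpm1 and Zfpm2 bind the N-terminal finger.

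The E10.5 library gave 10996 barcodes and the E11.5 library 12289, of which 8009 and 8976 cells were analysed, with medians of 15479 and 13131 UMIs (unique molecular identifiers, each standing for 1 captured RNA molecule). Among the analysed cells, 20 barcodes were shared by the libraries. Cells were grouped into 65 clusters without the Gata genes and their partner lists, and 50 clusters were named from fixed markers, giving 25 classes that hold 58.4% of the earlier and 54.1% of the later library's cells. Both labelled sites were represented in both libraries, by arterial endothelial-like cells and hepatoblast-like cells. Unnamed cluster 0 was shallow, with a median of 1635 UMIs per cell, and its levels are not described further. All 6 genes had UMIs in both libraries, of 21797 and 22690 genes that did.

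The finger sequences are shown because all 6 proteins share this fold. A scan of the coding sequences for 4 cysteines in the finger spacing found 2 fingers in each of the 6 proteins. The C-terminal finger, which makes the main contact with GATA sites, is printed for 5 genes from transcripts of GENCODE release 21 on GRCm38, 5′ to 3′ on the coding strand, with the 4 cysteine codons in capitals. Each of these fingers lies inside 1 coding exon.
Gata1 C finger: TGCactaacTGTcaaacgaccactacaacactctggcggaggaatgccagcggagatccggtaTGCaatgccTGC
Gata2 C finger: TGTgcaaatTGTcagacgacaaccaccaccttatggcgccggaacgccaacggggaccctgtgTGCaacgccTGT
Gata3 C finger: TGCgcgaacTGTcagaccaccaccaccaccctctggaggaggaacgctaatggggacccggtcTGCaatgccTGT
Gata4 C finger: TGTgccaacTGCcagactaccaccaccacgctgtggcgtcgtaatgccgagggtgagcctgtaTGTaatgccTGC
Gata5 C finger: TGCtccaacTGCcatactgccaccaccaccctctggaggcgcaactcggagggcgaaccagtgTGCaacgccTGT
The Gata1 finger is at chrX:7960607-7960681 on the minus strand, in exon 5 of 6. The Gata2 finger is at chr6:88204610-88204684 on the plus strand, in exon 5 of 6. The Gata3 finger is at chr2:9863119-9863193 on the minus strand, in exon 5 of 6. The Gata4 finger is at chr14:63203683-63203757 on the minus strand, in exon 4 of 7, and the Gata5 finger at chr2:180328331-180328405 on the minus strand, in exon 3 of 6. Gata6 has the same arrangement and its finger is not printed. Over the 25 residues from the first to the last cysteine, the Gata2 and Gata3 fingers were identical at 25 residues although their DNA was identical at 60 of 75 bases. The Gata4 and Gata6 fingers were identical at 24 residues, and those of Gata1 and Gata2 at 23. Gata5 stood apart, with 19 residues identical to each of Gata1, Gata2 and Gata3, 21 to Gata4 and 22 to Gata6.

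The N-terminal finger is printed for Gata1 and Gata4, because the FOG cofactors that bind it were measured in the same cells, again with the cysteine codons in capitals.
Gata1 N finger: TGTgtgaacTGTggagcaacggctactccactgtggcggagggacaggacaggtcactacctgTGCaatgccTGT
Gata4 N finger: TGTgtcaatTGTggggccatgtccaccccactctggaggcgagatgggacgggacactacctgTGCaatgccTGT
They lie at chrX:7961984-7962058 and chr14:63204649-63204723, in exon 4 of 6 of Gata1 and exon 3 of 7 of Gata4.

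Each RNA had its own set of cell classes. Levels are given as CPM, the UMIs of a gene summed over the cells of a class and divided by the UMIs of genes other than haemoglobin and mitochondrial genes, times 1000000, with exact Poisson 95% intervals that cover counting error only. Levels of different genes are not compared, since reads from the 3′ end were not scaled by length. Gata1 reached 20 CPM in 2 of 29 classes and unnamed clusters with enough cells at E10.5 and in 4 of 30 at E11.5. Gata2 reached it in 6 and 12, Gata3 in 9 and 5, Gata4 in 8 and 8, Gata5 in 4 and 4, and Gata6 in 14 and 16. Gata5 had no class at 100 CPM in either library, while Gata6 had 8 at E10.5 and 10 at E11.5.

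**Figure D1:**
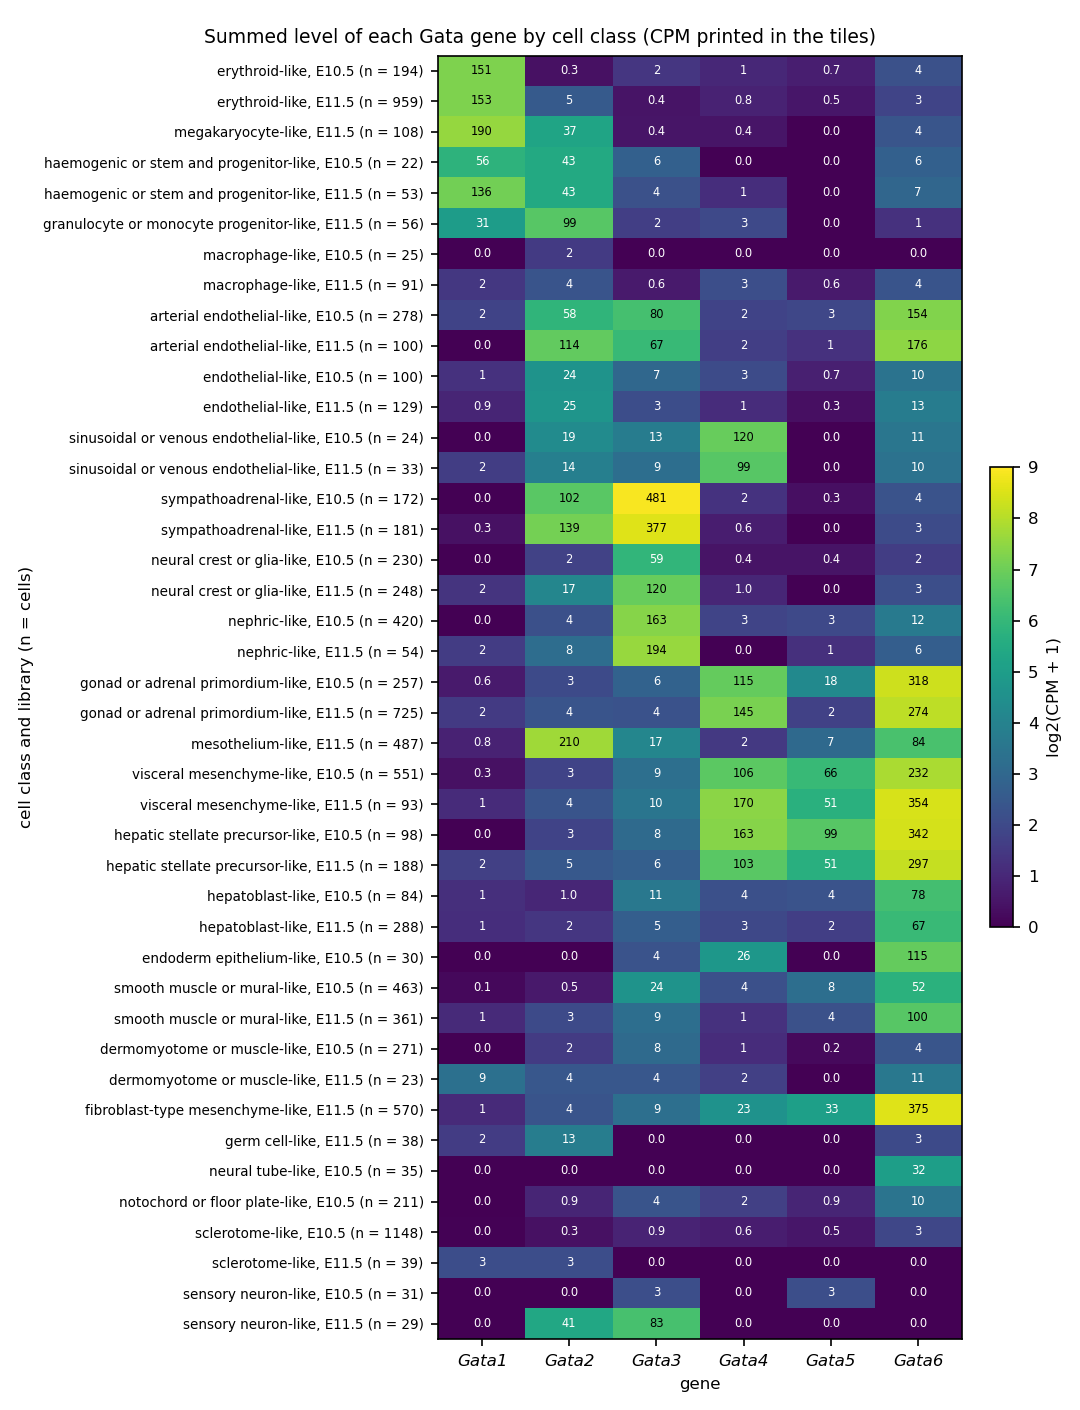
Level of each Gata gene (columns) in each cell class and library (rows, with the number of cells), as summed CPM printed in the tiles and coloured by log2(CPM + 1). Gata1 is high in the erythroid-like, megakaryocyte-like and progenitor-like rows, Gata3 is highest in the sympathoadrenal-like rows, and Gata4, Gata5 and Gata6 are high together in the stellate precursor-like and visceral mesenchyme-like rows.

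Gata1, the factor required for red cell and megakaryocyte maturation, was a gene of blood cells. In erythroid-like cells it stood at 151 CPM at E10.5 (137 to 165, 194 cells) and 153 CPM at E11.5 (148 to 159, 959 cells). These cells were 2.42% of the E10.5 library and held 79.8% of its Gata1 UMIs. At E11.5 megakaryocyte-like cells, the platelet lineage, had 190 CPM (173 to 208, 108 cells), which was 0.31 above the erythroid-like level on the log2 scale (0.16 to 0.45). Haemogenic or stem and progenitor-like cells had 55.7 CPM (22 cells) and 136 CPM (53 cells) in the earlier and later library, and the E11.5 value could not be separated from the erythroid-like level (log2 difference 0.18, interval -0.02 to 0.38). Of those 53 cells, 50 lay in cluster B11, where the stem cell factor Hlf was found in 2, so the E11.5 value is not one of stem cells. Granulocyte or monocyte progenitor-like cells had 30.6 CPM at E11.5 (56 cells). Macrophage-like cells were at the bottom of the blood classes, with no Gata1 UMI in 25 cells at E10.5 (interval up to 6.88 CPM) and 1.72 CPM at E11.5.

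A Gata1 UMI was found in 78.9% and 77.3% of erythroid-like cells of the E10.5 and E11.5 library, at median depths of 31042.5 and 24656 UMIs. Cells of the neural crest or glia-like class should lack Gata1, and the shares there were 0% and 2.82% at median depths of 22872 and 22031 UMIs. After thinning each cell to 5000 UMIs, the erythroid-like shares were 26.5% and 42.9%, leaving out 13 and 119 cells, and the neural crest or glia-like shares 0% and 1.36%, leaving out 17 and 28. Haemoglobin UMIs count toward the 5000 but not toward the CPM, so the thinned shares of erythroid-like cells are not read as an order. Scaled over all genes, haemoglobin included, the erythroid-like level of Gata1 was 77.0 CPM at E10.5 and 130 CPM at E11.5.

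The erythroid-like cells of the libraries were not the same kind of red cell. At E10.5 most fell into cluster B1, where haemoglobin made up a median of 47.8% of UMIs, and at E11.5 most fell into 7 other clusters. They were therefore also split by the share of a cell's UMIs that came from haemoglobin genes, a measure of red cell maturation that uses no Gata gene. At E11.5 the bins from 0 to 0.1%, 0.1 to 1%, 1 to 10% and over 10% held 126, 286, 255 and 292 cells, with median depths of 35396, 25858, 26649 and 18693 UMIs. Gata1 stood at 139, 145, 163 and 175 CPM over these bins, a difference of 0.33 on the log2 scale between the highest and the lowest bin. Gata2 stood at 9.69, 4.30, 1.64 and 5.0 CPM, from 44, 28, 10 and 13 UMIs, and 55 of those 95 UMIs came from the 25 cells of blood cluster B12.

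Over these bins, which mix red cells with embryonic and adult globin, Gata1 was therefore level or slightly higher toward more haemoglobin, while the Gata2 series rested on few cells. Cluster B12 had 77.8 CPM of Gata2 (58.6 to 101) and 134 CPM of Gata1, and its leading genes mix red cell genes (Rhd, Alas2) with Mpo, a granulocyte gene that was found in 1 of its 25 cells. Without this cluster, a choice made after seeing the data, Gata2 stood at 3.23, 2.53, 1.02 and 1.60 CPM, from 14, 16, 6 and 4 UMIs, beside 1.71 CPM in hepatoblast-like cells of the same library. The log2 ratio of the bin from 1 to 10% over the lowest bin was -2.56 with cluster B12 (-3.71 to -1.55), -1.66 without it (-3.33 to -0.19) and -1.54 with splits at 0.2, 2 and 20%. The same direction was thus seen in each, on levels of a few CPM. The bin over 10% also differed in the share of embryonic forms among beta-type globin UMIs, which was 80.1% there against 44.1%, 13.0% and 3.56% in the bins below it, and the part of this in the result was not tested. By cluster at E11.5, Gata1 stood at 143, 141, 149, 172 and 213 CPM in B0, B4, B3, B2 and B9. Median haemoglobin shares there were 0.097%, 0.41%, 0.83%, 5.43% and 18.3%, and embryonic shares 20.7%, 9.06%, 6.53%, 3.16% and 5.88%. Clusters B7 and B8, with embryonic shares of 92.8% and 93.9%, had 129 and 144 CPM of Gata1 at 72.9% and 67.1% haemoglobin. At E10.5, 186 of 194 erythroid-like cells were over 10% haemoglobin, and these had 153 CPM of Gata1 and no Gata2 UMI (interval up to 1.29 CPM).

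**Figure D2:**
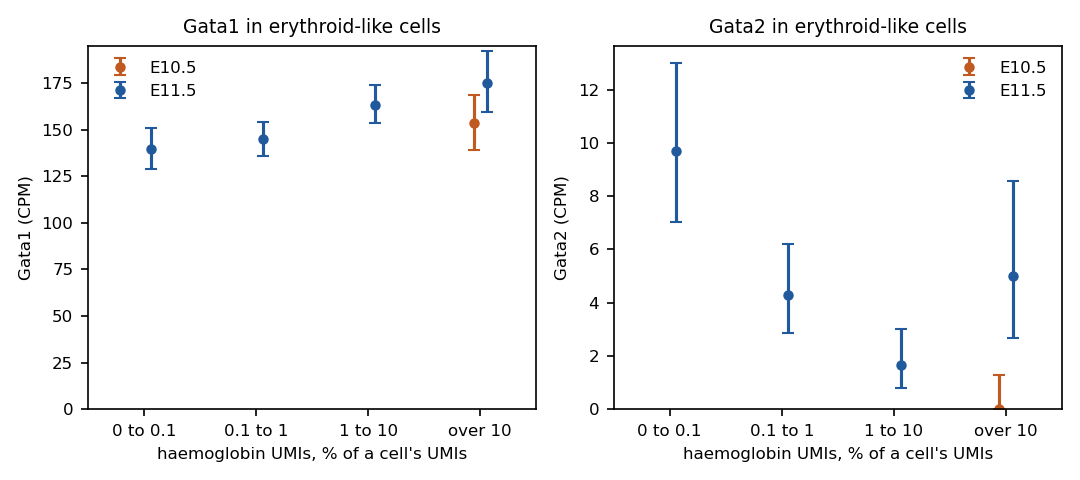
Gata1 (left) and Gata2 (right) in erythroid-like cells, as summed CPM (vertical axis) by the share of a cell's UMIs from haemoglobin genes (horizontal axis, in percent), with exact Poisson 95% intervals as bars. Gata1 stays between 139 and 175 CPM at E11.5, while Gata2 goes from 9.69 to 1.64 CPM over the lower 3 bins, with 55 of its 95 UMIs from cluster B12. E10.5 is drawn for the bin over 10% only, which held 186 of its 194 cells.

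Partners of Gata1 in red cells differed in their course over the same bins. Zfpm1 (FOG1), which binds the Gata1 N finger, stood at 228, 260, 311 and 377 CPM. Tal1, the helix-loop-helix partner of the GATA complex at red cell genes, stood at 102, 101, 124 and 245 CPM, and Klf1, an activator of red cell genes, at 316, 360, 411 and 526 CPM. Gfi1b, a repressor required in red cells and megakaryocytes, was lowest in the last bin, at 131, 152, 145 and 96.6 CPM, and so was Lmo2, the bridge of the GATA and Tal1 complex, at 330, 355, 348 and 282 CPM. The last bin mixes red cells with embryonic and adult globin. Lmo2 was 97.1 and 144 CPM in clusters B7 and B8, with 92.8% and 93.9% embryonic forms among beta-type globin UMIs. It was 386 CPM in cluster B9, with 5.88%. The part of globin type in these courses was not tested.

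Immature blood cells held Gata2 with and without Gata1. At E10.5, 14 cells of cluster B15 had no Gata1 UMI (interval up to 6.16 CPM) and 46.8 CPM of Gata2. These cells had 229 CPM of Runx1 and 105 CPM of Hlf, a stem cell factor found in 13 of the 14, along with 281 CPM of Spi1 (PU.1) and 117 CPM of the receptor Kit. The other 8 progenitor-like cells of that library, in cluster B11, had 183 CPM of Gata1 and 34.2 CPM of Gata2. At E11.5 the 50 cells of cluster B11 had 143 CPM of Gata1 and 40.4 CPM of Gata2, so the class mean of Gata1 at E10.5 averages cells with and without it. These 50 cells had 1.32 CPM of Hlf, from 2 cells, 25.2 CPM of Spi1 and 292 CPM of Zfpm1. Gm15915, Myb and Vamp5 were among the leading genes of both B11 and the erythroid-like cluster B0.

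The highest blood level of Gata2 was in granulocyte or monocyte progenitor-like cells at E11.5, at 99.1 CPM (83.2 to 117). That cluster was led by neutrophil granule genes, with 2093 CPM of Mpo and 440 CPM of Elane, and also held mast cell genes, with 51.8 CPM of Cpa3 from 16 cells and 90.4 CPM of Hdc from 20 cells. In it 9 of the 10 cells with a Gata1 UMI also had one of Gata2 (90.0%), against 32.6% of the cells without Gata1. Thinned to 5000 UMIs this was 5 of 5 against 22.0%. No such gap was seen in megakaryocyte-like cells, where the thinned shares were 10.2% and 12.5%. In progenitor-like cells they were 0 of 5 cells against 25% at E10.5, and 28.6% against 16% at E11.5, with overlapping intervals in both. Megakaryocyte-like cells had 37.3 CPM of Gata2, progenitor-like cells 43.0 CPM at E10.5 and 42.8 CPM at E11.5, and erythroid-like cells 0.34 CPM at E10.5 and, cluster B12 included, 4.82 CPM at E11.5.

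Outside blood, Gata2 was high in the sympathetic lineage, arterial endothelium and several mesenchymes. Sympathoadrenal-like cells, the precursors of sympathetic neurons and adrenal chromaffin cells, had 102 CPM at E10.5 (91.7 to 114) and 139 CPM at E11.5 (126 to 153). Mesothelium-like cells, the lining of the body cavity, had 210 CPM at E11.5 (198 to 222, 487 cells). Unnamed cluster 2 of the same library, led by Igfbp3, Itga8, Tgfbi and Wnt4, had 197 CPM (188 to 207, 869 cells), and held 30.2% of all Gata2 UMIs at E11.5. The intervals of these last groups overlap. Unnamed cluster 34, with Rmst, Dach2 and Emx2 among its leading genes, had 129 CPM, and unnamed cluster 13, with Gucy1a1 and Itga8 among its leading genes, had 106 CPM.

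The cluster 2 and cluster 13 cells belong to the E11.5 library, as do all but 1 of the mesothelium-like cells. Unnamed cluster 15 of E10.5 shares the leading genes Upk3b and Krt18 with the mesothelium-like cluster, and had 30.8 CPM of Gata2. Visceral mesenchyme-like cluster 6 shares Upk3b and Itm2a with it, and had 2.52 CPM at E10.5. Cluster 15 shares no leading gene with cluster 2 or cluster 13. Because clusters 2 and 13 and the mesothelium-like cluster held at most 1 cell at E10.5, stage and cell kind cannot be told apart there. Mesothelium-like cells exceeded the gonad or adrenal primordium-like cells of the same library by 5.71 on the log2 scale for Gata2 (5.26 to 6.20), and were lower for Gata4 (-6.30, interval -7.30 to -5.45) and Gata6 (-1.70). Of all genes, 9.52% were at least 2-fold higher and 11.9% lower in that contrast. The Gata2 contrast lay between 4.40 and 5.72 under the alternatives, but a limit of 5% mitochondrial UMIs turned Gata4 to 1.17 and Gata6 to 0.21, so no direction is given for those. Cluster 49 of E10.5 reads 170 CPM from 8 UMIs in 20 shallow cells (73.5 to 335).

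A Gata2 UMI was found in 79.3% of mesothelium-like cells at a median depth of 11686 UMIs, and in 58.4% after thinning, which left out 21. Cluster 2 had 63.2% and 48.8%. In sympathoadrenal-like cells the shares were 47.7% and 60.8% in the earlier and later library, and 21.9% and 33.0% after thinning. Neural crest or glia-like cells, chosen as the class without Gata2, had 4.35% and 17.7%, and thinned 0% and 5.91%, in the same order. Hand2, a factor of sympathetic precursors, stood at 46.0 and 78.5 CPM in that class, so it is no clean background. Hepatoblast-like cells had 2.08% at E11.5 at a median depth of 33479.5 UMIs.

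Endothelial-like cells divided by their Gata genes. Arterial endothelial-like cells had 57.7 CPM of Gata2 at E10.5 (49.7 to 66.6, 278 cells) and 114 CPM at E11.5 (97.0 to 133, 100 cells). They had 80.3 and 66.7 CPM of Gata3, and 154 and 176 CPM of Gata6. Sinusoidal or venous endothelial-like cells, with the scavenger receptors of liver sinusoids among their markers, had Gata4 in place of Gata6. Their Gata4 level was 120 CPM at E10.5 (98.6 to 144, 24 cells) and 99.4 CPM at E11.5 (80.3 to 122, 33 cells), against 2.48 and 2.15 CPM in arterial endothelial-like cells.

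The sinusoidal or venous level of Gata4 exceeded the arterial level by 5.59 on the log2 scale at E10.5 (4.57 to 6.84) and by 5.53 at E11.5 (3.94 to 7.83). Gata6 went the other way, at -3.85 (-4.92 to -2.96) and -4.20 (-5.34 to -3.25). Gata3 was lower by -2.65 and -2.96, and Gata2 by -1.58 and -3.04. Of the 4 members with at least 20 UMIs in this contrast, 1 was at least 2-fold higher and 3 at least 2-fold lower in each library. Of all genes, 4.27% were that much higher and 23.9% that much lower at E10.5, and 8.62% and 20% at E11.5. Over all genes the median was -0.29 and -0.18. Neither the Gata4 nor the Gata6 contrast changed direction under any alternative that could be run.

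A Gata4 UMI was found in 87.5% of sinusoidal or venous cells of the earlier library and 84.8% of the later, at median depths of 33771 and 26532 UMIs. In erythroid-like cells, which should lack Gata4, the shares were 1.55% and 1.46%, at medians of 31042.5 and 24656 UMIs. Thinned, the sinusoidal or venous shares were 45.8% and 29.0%, leaving out 0 and 2 cells, against 1.10% and 0.12%. The remaining endothelial-like cells had 23.8 and 24.6 CPM of Gata2 and 9.70 and 12.8 CPM of Gata6. Relative to arterial cells these were lower by -1.28 and -2.21 for Gata2, and by -3.99 and -3.79 for Gata6. For at least 2-fold lower, the share of all genes in that contrast was 16.8% at E10.5 and 11% at E11.5.

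**Figure D3:**
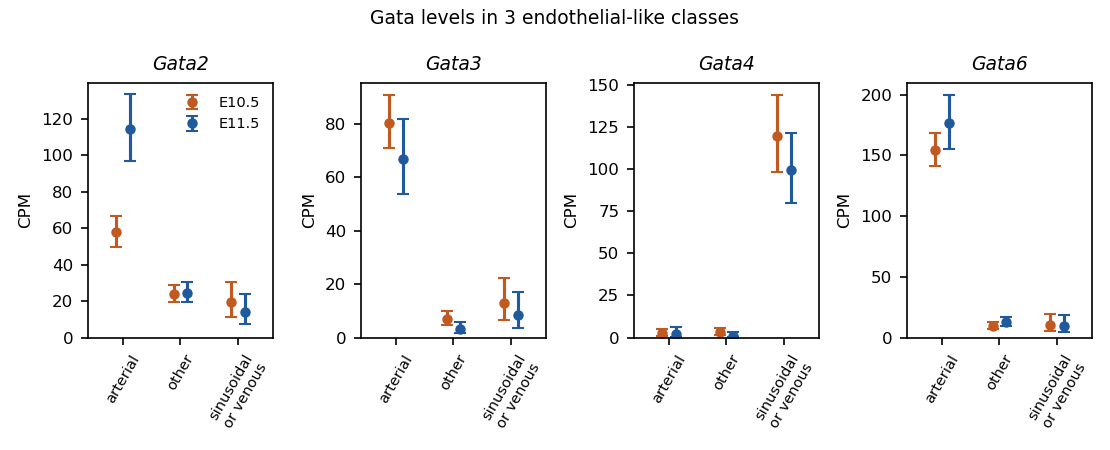
Levels of Gata2, Gata3, Gata4 and Gata6 (CPM, vertical axes starting at 0) in arterial, other and sinusoidal or venous endothelial-like cells (horizontal axis) of both libraries, with exact Poisson 95% intervals. Gata4 is high in sinusoidal or venous cells only among these 3 classes, and Gata6 and Gata3 are highest in arterial cells.

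Within the arterial class the clusters differed. Cluster V1 (123 cells of E10.5) had 88.6 CPM of Gata2, 99.7 of Gata3 and 213 of Gata6. Cluster V6 (39 cells of E11.5) had 168, 102 and 261 CPM. The class ratio of Gata2 between the libraries was 0.98 on the log2 scale (0.67 to 1.30). Of the 3 clusters present in both, it was 1.01 in V0 (-0.47 to 2.39), 0.61 in V1 (-0.38 to 1.45, with 7 cells at E11.5) and 1.43 in V5 (0.53 to 2.34). The higher E11.5 level was thus also seen inside V5, while in V0 and V1 the interval includes no change. In V5 Gata3 was lower at E11.5 (67.2 and 24.1 CPM), and in V0 so was Gata6 (131 and 45.1 CPM, the latter from 4 UMIs). Arterial cells were shallow, with median depths of 7360 and 8609 UMIs. A Gata2 UMI was seen in 39.2% and 51.0% of them, and in 30.1% and 50.9% after thinning, which left out 122 and 41 cells.

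Gata3, known for sympathetic neurons, the nephric duct and T cells, was highest in sympathoadrenal-like cells. Their level was 481 CPM at E10.5 (458 to 505) and 377 CPM at E11.5 (356 to 399). A Gata3 UMI was found in 91.3% and 97.2% of them, and in 72.2% and 76.0% after thinning. In erythroid-like cells the shares were 2.06% and 0.83%, and 0% and 0.36% after thinning, at the depths given above. Sympathoadrenal-like cells exceeded neural crest or glia-like cells by 3.02 on the log2 scale for Gata3 in the earlier library and 1.65 in the later, and by 5.38 and 3.06 for Gata2. Both directions held in all alternatives run, and the Gata2 values moved most, between 4.16 and 6.61 in the earlier library and between 2.88 and 4.47 in the later. Of all genes, 13.3% were at least 2-fold higher in this contrast in the earlier library and 15.5% in the later.

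The stage ratio of both genes in this class depended on how cells were grouped. Over the class Gata3 was at -0.35 (-0.46 to -0.24) and Gata2 at 0.44 (0.23 to 0.65) on the log2 scale, E11.5 over E10.5. Within cluster 24, which was present in both libraries, Gata3 went from 485 to 453 CPM (-0.10, interval -0.23 to 0.03) and Gata2 from 102 to 175 CPM (0.77, 0.54 to 1.01). Cluster 41, found at E11.5, had 297 CPM of Gata3 and 101 CPM of Gata2. With coarser clusters (resolution 0.5) the Gata2 ratio was -0.28, and with finer clusters (resolution 2) the Gata3 ratio was 0.10, so no direction is given for either gene over the class.

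Gata3 was also high in nephric-like cells, the epithelium of the early kidney duct and tubules, at 163 CPM at E10.5 (154 to 172, 420 cells) and 194 CPM at E11.5 (172 to 218, 54 cells). A UMI of it was found in 36.2% and 31.5% of these cells, and in 31.5% and 32.7% after thinning, which left out 96 and 5. At E10.5 the nephric-like cells with a Gata3 UMI had a UMI of Tfap2b, another transcription factor gene, in 68.4% of cases, against 7.46% of those without. After thinning this was 45.5% against 7.2%. At E11.5 the thinned shares were 23.1% and 30.6%, so the pattern was not seen there. A stricter limit on mitochondrial UMIs (5%) turned the nephric Gata3 ratio from 0.25 to -1.27.

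In neural crest or glia-like cells, 1 cluster present in both libraries, Gata3 went from 59.3 CPM (52.9 to 66.2) to 120 CPM (111 to 130), a log2 ratio of 1.02 (0.82 to 1.22). With coarser clusters (resolution 0.5) the ratio was 0.29. In smooth muscle or mural-like cells it went from 23.7 to 8.60 CPM, a log2 ratio of -1.46 (-1.96 to -0.99), where 455 of the 463 E10.5 cells lay in cluster 14 and 342 of the 361 E11.5 cells in cluster 19. Over the alternatives this ratio lay between -1.85 and -1.20.

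Gata4, Gata5 and Gata6 are known for heart, gut and other tissues of mesoderm and endoderm. Hepatic stellate precursor-like cells, the mesenchyme of the early liver, had all 3. Their Gata4 was 163 CPM at E10.5 (141 to 187, 98 cells) and 103 CPM at E11.5 (90.7 to 115, 188 cells). Their Gata5 was 99.5 and 50.7 CPM, and their Gata6 342 and 297 CPM. The stage ratios were -0.67 for Gata4 (-0.94 to -0.39), -0.97 for Gata5 (-1.34 to -0.60) and -0.20 for Gata6 (-0.38 to -0.03), in a class that was 1 cluster in both libraries. All 3 were lower at E11.5, but none reached 2-fold.

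Liver epithelium differed from this liver mesenchyme. Hepatoblast-like cells had 77.9 and 66.9 CPM of Gata6 but 3.57 and 2.84 CPM of Gata4. A Gata4 UMI was found in 5.95% and 6.60% of them, and in 0% and 2.12% after thinning. Stellate precursor-like cells exceeded hepatoblast-like cells by 5.51 and 5.17 on the log2 scale for Gata4, 4.68 and 4.55 for Gata5, and 2.14 and 2.15 for Gata6. Of all genes, 23.6% and 24.9% were at least 2-fold higher in that contrast. Endoderm epithelium-like cells at E10.5 (30 cells) had 25.9 CPM of Gata4 and 115 CPM of Gata6.

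Visceral mesenchyme-like cells, the mesenchyme around the gut tube, had 106 CPM of Gata4 at E10.5 (99.8 to 113, 551 cells) and 170 CPM at E11.5 (151 to 191, 93 cells). Gata5 was 66.3 CPM (61.1 to 71.8) and 51.0 CPM (40.9 to 62.8) there, a log2 ratio of -0.38 that was -1.30 with at least 2000 UMIs per cell. Gata6 was 232 and 354 CPM, a log2 ratio of 0.61 (0.48 to 0.74). The Gata4 ratio of 0.68 (0.49 to 0.87) turned to -0.08 with at least 2000 UMIs per cell and to -0.19 with doublets kept, so no direction is given for it.

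Gonad or adrenal primordium-like cells had 115 CPM of Gata4 at E10.5 (106 to 125, 257 cells) and 145 CPM at E11.5 (137 to 152, 725 cells). Gata6 was 318 and 274 CPM, a log2 ratio of -0.21 (-0.30 to -0.13). Gata5 was 18.1 CPM at E10.5 and 2.30 CPM at E11.5, a log2 ratio of -2.97 (-3.70 to -2.30), with a UMI in 25.7% and 2.76% of cells. The E10.5 cells lay in cluster 26, and all but 4 of the 725 E11.5 cells in clusters 12, 37 and 38, so stage and cluster cannot be told apart. The Gata4 ratio of 0.33 turned to -1.57 both with at least 2000 UMIs per cell and with the Gata genes kept in the clustering. The Gata5 ratio was -1.59 and -1.40 under those settings.

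Among the E11.5 gonad or adrenal clusters Gata4 was uneven. Cluster 37, with the steroid genes Star and Fdxr among its leading genes, had 33.2 CPM of Gata4. Cluster 12 had 136 CPM and cluster 38 had 285 CPM. Cluster 38 exceeded cluster 37 by 3.10 on the log2 scale (2.70 to 3.54) for Gata4, beside 9.72% of all genes at least 2-fold higher in that contrast. For Gata6 it had 201 against 232 CPM (-0.21, interval -0.42 to 0.01).

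Other mesenchyme of the E11.5 library had Gata6 with varying amounts of Gata4 and Gata5. Unnamed cluster 20 (Igf1, Ccdc80, Hlx) had 467 CPM of Gata6, 81.8 CPM of Gata4 and 63.5 CPM of Gata5. Fibroblast-type mesenchyme-like cells had 375 CPM of Gata6 (360 to 391, 570 cells), 22.8 CPM of Gata4 and 33.2 CPM of Gata5. Mesothelium-like cells had 84.3 CPM of Gata6 and 1.84 CPM of Gata4. Unnamed cluster 21 (Mgp, Ptn, Myl7), present in both libraries, had 207 and 59.2 CPM of Gata4, and 478 and 264 CPM of Gata6. Unnamed cluster 28 of E10.5 had 46.2 CPM of Gata4, 48.5 CPM of Gata5 and 274 CPM of Gata6.

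In smooth muscle or mural-like cells Gata6, known for vascular smooth muscle, was 52.3 CPM at E10.5 (47.2 to 57.8) and 99.9 CPM at E11.5 (91.7 to 109), a log2 ratio of 0.93 (0.74 to 1.13). With at most 5% mitochondrial UMIs the ratio was 0.081. The E10.5 cells lay mostly in cluster 14 and the E11.5 cells in cluster 19, so stage and cluster cannot be told apart. A Gata6 UMI was found in 35.6% and 63.4% of these cells, and in 15.9% and 32.5% after thinning. In erythroid-like cells the shares were 5.15% and 4.38%, and thinned 0% and 0.83%.

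Gata2 and Gata4 rarely reached the same level in 1 cluster. Over 76 sums of a cluster in a library (at least 20 cells each), Gata2 reached 20 CPM in 23 and Gata4 in 18, and both in 1, the shallow cluster 0 at E11.5. Sinusoidal or venous cluster V4 lay near that line, with 120 CPM of Gata4 and 19.2 CPM of Gata2 at E10.5 (11.4 to 30.4), and 99.4 and 13.9 CPM at E11.5. Gata5 reached it in 8, and all 8 also had Gata4 and Gata6 at that level. Gata4 came with Gata6 in 16 of its 18, and the exceptions were the sinusoidal or venous cluster V4 in each library. Gata6 reached 20 CPM in 38, so it was without Gata4 in the rest. Gata2 came with Gata6 in 14, with Gata3 in 9 and with Gata1 in 5. Gata1 reached 20 CPM in 13 and Gata3 in 18. The Pearson correlation of log2(CPM + 10) over the 76 sums was 0.71 for Gata5 with Gata6, 0.69 for Gata4 with Gata6 and 0.65 for Gata4 with Gata5. It was 0.45 for Gata2 with Gata3, 0.07 for Gata2 with Gata6, -0.07 for Gata1 with Gata2 and -0.19 for Gata2 with Gata4. The sums share their library and differ in depth, and these values are descriptions.

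**Figure D4:**
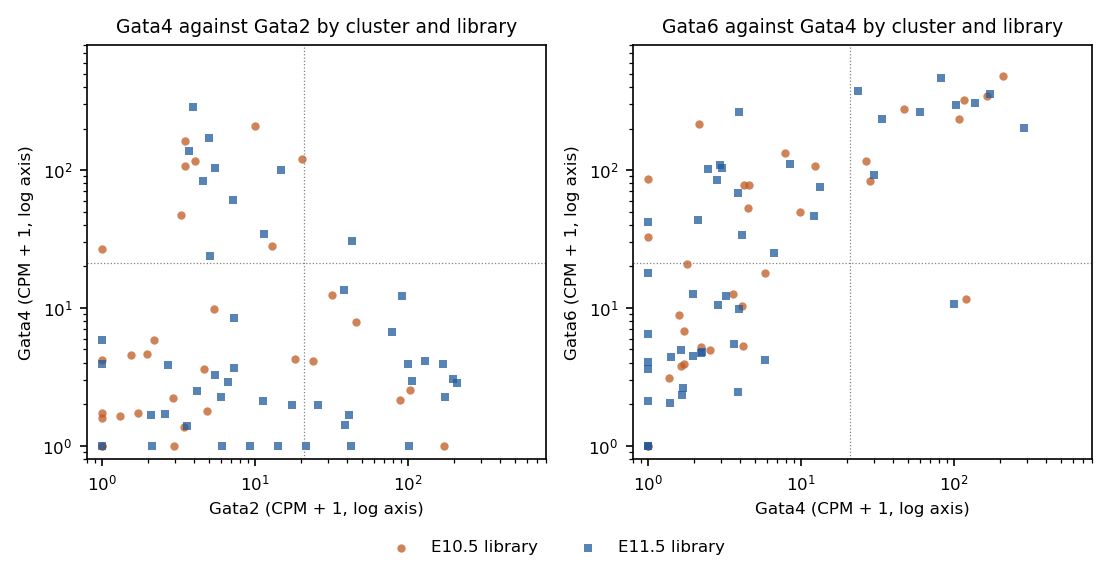
Each point is 1 cluster in 1 library; the left panel sets Gata4 against Gata2 and the right panel Gata6 against Gata4, as CPM + 1 on log axes, with dotted lines at 20 CPM. On the left only the shallow cluster 0 of E11.5 is past both lines, while on the right 16 of the 18 points past 20 CPM of Gata4 are also past 20 CPM of Gata6.

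Where 2 members shared a class, their UMIs did not always share cells. In cluster 2 at E11.5, 31.5% of the cells with a Gata2 UMI had one of Gata6, against 58.8% of the cells without. Thinned, this was 16.6% (13.1 to 20.6) against 39.6% (34.8 to 44.4). Cluster 13 gave 20.3% against 42.0% after thinning, E10.5 cluster 15 6.5% against 37.4%, and mesothelium-like cells 22.4% against 34.5%. In those 4 groups the share of cells with Gata6 was lower among the cells with Gata2. In cluster 34 the thinned shares were 14.6% and 12.5%, with no such gap. Arterial endothelial-like cells also had none, with 57.4% and 58.7% at E10.5, and 53.3% and 55.2% at E11.5. Over all endothelial-like cells the direction was opposite, with 54.7% against 30.8% at E10.5, and 40% against 15.1% at E11.5.

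Other pairs varied. In stellate precursor-like cells at E10.5, Gata5 was found in 27.9% of cells with a Gata4 UMI (15.3 to 43.7) against 46.2% of those without (32.2 to 60.5) after thinning, and at E11.5 in 20.9% and 19.2%. In smooth muscle or mural-like cells at E10.5, Gata6 was found in 39.6% of cells with a Gata3 UMI and 13.0% of those without, after thinning. In visceral mesenchyme-like cells at E10.5, Gata6 was found in 75.6% of cells with a Gata4 UMI against 49.6% of those without, also thinned. In sympathoadrenal-like cells at E10.5 Gata3 was found in 91.9% of cells with Gata2 and 66.7% without, and at E11.5 in 79.7% and 74.2%. In arterial endothelial-like cells at E10.5 Gata3 was found in 60.6% of the cells with Gata2 and 21.9% of those without, but after thinning in 29.8% and 33.0%. Thinning also left out 122 of the 278 arterial cells of E10.5, 113 of them in cluster V0. The part of depth in this change was not tested.

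Between the libraries, members passed a 2-fold ratio in 7 of 11 classes. In neural crest or glia-like cells 2 of 3 members with at least 20 UMIs were at least 2-fold higher at E11.5, Gata3 and Gata2, beside 6.72% of all genes, and none lower, beside 2.61%. Gata2 went from 2.46 to 16.6 CPM there, a log2 ratio of 2.76 (1.91 to 3.72) from 13 and 86 UMIs. In smooth muscle or mural-like cells 1 of 5 was higher, Gata2 from 4 and 17 UMIs, beside 8.25% of all genes, and 3 were lower, Gata3, Gata4 and Gata5, beside 4.02%. Of these, Gata4 (26 and 8 UMIs) was at 0.23 with coarser clusters in place of -1.27. In gonad or adrenal primordium-like cells Gata5 was lower, beside 5.4% of all genes, and Gata1 higher from 3 and 19 UMIs (1.74, interval -0.03 to 4.14), beside 14.8%. In erythroid-like cells Gata2 was higher from 1 and 95 UMIs, 55 of the latter in cluster B12 (3.84, interval 1.33 to 9.16; 1.48 with doublets kept), beside 16% of all genes.

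In nephric-like cells 1 of 5 members was higher, beside 13.9% of all genes, and 3 were lower, beside 6.2%. Gata2 went from 3.63 to 8.25 CPM there, the latter from 12 UMIs (1.18, interval 0.07 to 2.21). Gata6 went from 11.7 to 5.5 CPM (-1.09, interval -2.34 to -0.05), but was at 1.39 with at most 5% mitochondrial UMIs. Gata4 (20 and 0 UMIs) and Gata5 (23 and 2 UMIs) had intervals that include no change. In hepatoblast-like cells 1 of 4 was lower, beside 6.5% of all genes, and none higher, beside 7.97%. That gene was Gata3, with 34 UMIs in 84 cells and 48 UMIs in 288 cells (-1.01, interval -1.68 to -0.34), which was at 0.23 after thinning and 0.026 with at most 5% mitochondrial UMIs. Gata3 was also the 1 of 3 that was lower in the remaining endothelial-like cells, from 29 and 11 UMIs (-1.07, interval -2.22 to -0.03). There 2.42% of all genes were lower and 7.77% higher. Of the hepatoblast-like cells, 83 of 84 lay in cluster 35 at E10.5 and 236 of 288 in cluster 27 at E11.5. Among these remaining endothelial-like cells, cluster V3 held 88 of 100 at E10.5 and cluster V2 95 of 129 at E11.5. The ratios of these 2 classes thus mostly compare different clusters. The same holds for smooth muscle or mural-like, gonad or adrenal primordium-like and erythroid-like cells.

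No member passed 2-fold in arterial endothelial-like (0 of 3), stellate precursor-like (0 of 4), sympathoadrenal-like (0 of 3) or visceral mesenchyme-like cells (0 of 5). The shares of all genes past 2-fold in these 4 classes were 3.28% higher and 4.62% lower, 5.55% and 4.41%, 12.8% and 6.25%, and 6.6% and 7.32%.

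**Figure D5:**
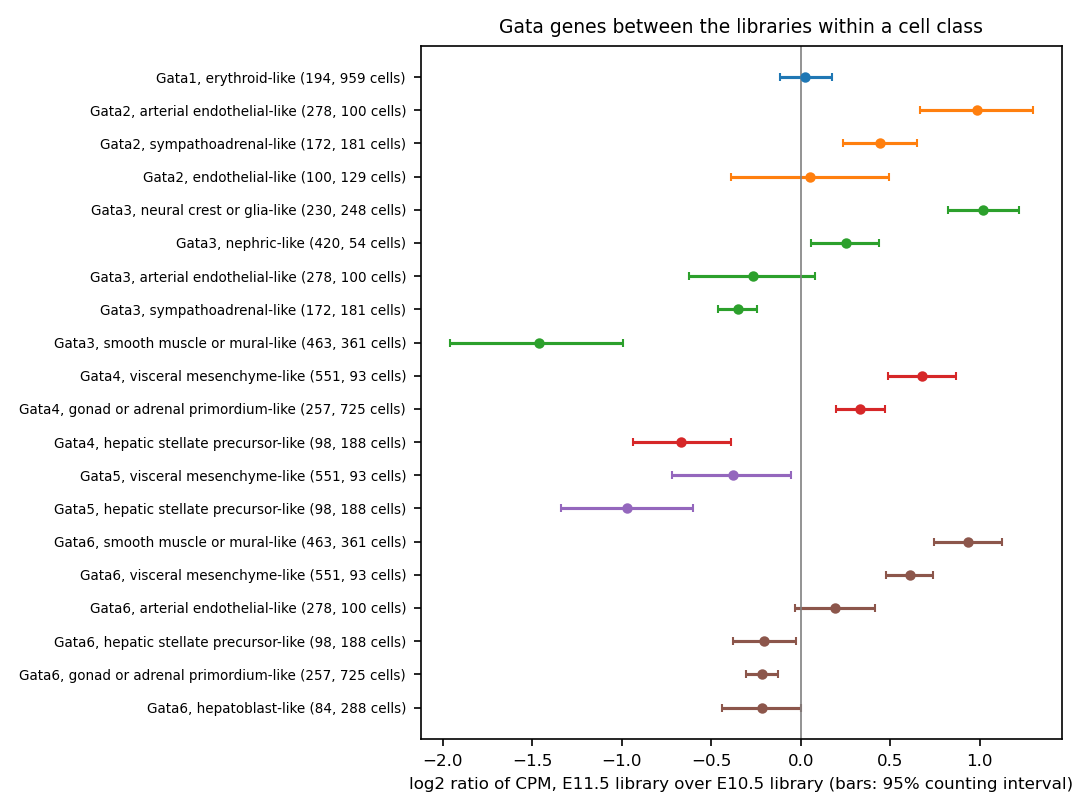
Log2 ratio of CPM, E11.5 over E10.5 (horizontal axis), by Gata gene and class (vertical axis, with cells at E10.5 and E11.5), with exact 95% counting intervals. A gene is drawn in a compared class only where it reached 20 CPM in at least 1 library. Gata3 lies at 1.02 in neural crest or glia-like cells and at -1.46 in smooth muscle or mural-like cells, and Gata1 in erythroid-like cells lies at 0.03 with an interval across 0. The sympathoadrenal-like (Gata2 and Gata3), nephric-like (Gata3), visceral mesenchyme-like (Gata4) and gonad or adrenal primordium-like (Gata4) points changed side under another setting.

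Gata1 in erythroid-like cells was nearly level between the libraries, at 0.03 on the log2 scale (-0.12 to 0.17). It was 0.33 with doublets kept and 0.76 over all genes, the latter moving with the haemoglobin share. The median of all genes in this class was 0.28. Low levels of red cell genes outside blood also differed between the libraries. Klf1 stood at 0.57 CPM at E10.5 and 5.22 CPM at E11.5 in neural crest or glia-like cells, and at 0.27 and 4.21 CPM in smooth muscle or mural-like cells. The part of this in the low Gata1 and Gata2 values of those classes was not tested.

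The FOG cofactors followed the split between blood and mesoderm in part. Zfpm1 was 240 and 284 CPM in erythroid-like cells and 385 CPM in megakaryocyte-like cells, and 54.3 and 76.0 CPM in arterial endothelial-like cells. Zfpm2 (FOG2), known for its work with Gata4 in heart and gonad, was 2.0 and 0.7 CPM in erythroid-like cells. Stellate precursor-like cells had both, with 86.0 and 85.9 CPM of Zfpm1 and 65.7 and 102 CPM of Zfpm2. In gonad or adrenal primordium-like cells Zfpm1 went from 54.8 to 17.1 CPM (log2 -1.68) and Zfpm2 from 57.9 to 136 CPM (1.23).

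Of the 13 blood GATA partners, 3 were at least 2-fold higher, beside 16% of all genes, and 1 lower in erythroid-like cells at E11.5, with a median of 0.56 beside 0.28 for all genes. Lmo2 went from 86.2 to 338 CPM (1.97). Cbfa2t3, a corepressor of that complex, went from 17.1 to 47.9 CPM (1.48), and Runx1 from 10.7 to 32.7 CPM (1.61). The member that was lower was Fli1, a factor of the megakaryocyte lineage, beside 7.16% of all genes lower in this class. The erythroid-like classes of the libraries differ in haemoglobin share, as given above, and in globin type. Cluster B1, with most of the E10.5 cells, had 99.4% embryonic forms among beta-type globin UMIs and 75.3 CPM of Lmo2. At E11.5 Lmo2 was 97.1 and 144 CPM in clusters B7 and B8, which were also mostly embryonic, and 386 CPM in cluster B9, which was not. The part of either difference in these ratios was not tested.

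Of the mesoderm GATA partners, 1 was higher and 5 lower of 9 measured in visceral mesenchyme-like cells, beside 6.6% and 7.32% of all genes, with a median of -1.16 beside -0.01 for all genes. Hand1, a helix-loop-helix factor of lateral mesoderm, went from 136 to 13.9 CPM (-3.29), and Mef2c, a muscle factor, from 74.8 to 21.5 CPM (-1.80). Nkx2-5 went from 27 UMIs to 0, and Tbx2 and Tbx3 were also lower. Tbx20 was the member that was higher, from 12.9 to 51.6 CPM. In stellate precursor-like cells 1 was higher and 2 lower of 7, beside 5.55% and 4.41% of all genes, with Hand1 going from 115 to 14.8 CPM (-2.96) and Mef2c from 200 to 93.1 CPM, while Isl1 went from 2.53 to 15.1 CPM. In gonad or adrenal primordium-like cells 2 of 6 were higher, beside 14.8% of all genes, and none lower, Tbx2 (5.14 to 39.9 CPM) and Mef2c. No partner in any of the 4 lists passed 2-fold in arterial endothelial-like cells.

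In smooth muscle or mural-like cells 3 blood partners were higher and 1 lower of 8, and 2 mesoderm partners were higher and 2 lower of 8, beside 8.25% of all genes higher and 4.02% lower. Cbfa2t3 went from 81 to 644 UMIs there and reached 118 CPM (3.42), and Hand2, a factor of heart and sympathetic precursors, went from 7.35 to 28.9 CPM (1.97). In neural crest or glia-like cells both FOG cofactors were at least 2-fold higher, beside 6.72% of all genes. Zfpm1 went from 18.6 to 37.1 CPM (1.00), and Zfpm2 from 6 to 15 UMIs (1.35, interval -0.10 to 3.01). In sympathoadrenal-like cells Zfpm2 went from 8.50 to 28.2 CPM (1.73). In gonad or adrenal primordium-like cells Runx1 went from 1.90 to 61.7 CPM (5.02), and 4 of 9 blood partners were higher there, beside 14.8% of all genes, and 1 lower, beside 5.4%. These partner ratios follow the classes as named and were not recomputed under other settings.

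The genes whose levels followed each Gata gene most closely over the 76 sums were named by correlation of log2(CPM + 10) among 13167 genes. For Gata1 they were Epor, the erythropoietin receptor (0.95), Gfi1b (0.94) and Tmem14c (0.93). For Gata3 they were Tfap2b (0.82), Ret, the receptor of GDNF ligands (0.79), and Cyb561 (0.77). For Gata5 they were Tnc (0.86), Gm33474 (0.77) and Shisa3 (0.77), and for Gata4 Zfpm2 (0.72), Lhx9 (0.71) and Ntf5 (0.70). For Gata6 they were 1010001N08Rik (0.83), Bambi (0.78) and Zfpm2 (0.75). The nearest genes to Gata2 were looser, with Agtr2 (0.62), Thy1 (0.57) and Slc18a2 (0.57). Agtr2, an angiotensin receptor gene, was found in 27.3% of Gata2-positive and 11.4% of Gata2-negative cells of cluster 2 after thinning, in 30.5% and 9.2% in cluster 13, and in 76.1% and 38.2% of sympathoadrenal-like cells at E10.5.

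The transcript 1010001N08Rik overlaps Gata6 on the opposite strand and had 1000 UMIs against 23072 of Gata6. Gata5os overlaps Gata5 in the same way, with 46 UMIs against 2491. The strand setting of the counting was not given in the sources used here, so reads of these pairs may not be told apart. Gata3 (chr2:9857078-9890034), with 7066 UMIs, overlaps 3 annotated genes with 10, 68 and 75 UMIs. Gata6 lies on the plus strand of chromosome 18. Gata1 spans chrX:7959260-7978071 and Gata4 chr14:63198922-63271692, and neither had such a neighbour. Gata2 spans chr6:88193891-88207032 and Gata5 chr2:180325133-180334699.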

How the data were processed

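Each library was made with the 10x Chromium 3′ v3.1 kit per the labels' protocols, and the deposited values are UMI counts per gene and barcode from Cell Ranger 5.0.0 on mm10 (GRCm38) per the submitters' processing notes. The lowest barcode had 500 UMIs.

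From these counts, cells were kept from 1000 UMIs and 500 genes up, where mitochondrial UMIs made up no more than 10% (8705 at E10.5, 9756 at E11.5). Scrublet's automatic threshold marked no cell, so the 8% with the highest doublet scores were removed (696 and 780). Cells were clustered on 2000 variable genes, 40 principal components and 15 neighbours (scanpy 1.11.5, Leiden resolution 1.0, Python 3.11.15), without the Gata genes and partner lists; blood and endothelial-like cells were clustered again (clusters B and V). A cluster was named when at least 3 markers of 1 of 31 lists stood at 20 CPM or more and 3-fold above the other clusters, and classes of at least 50 cells per library were compared. These naming thresholds, the second clustering and an alternative without cluster B12 were set after seeing the data, and the members and lists were chosen with earlier results of these data known.

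Intervals are exact 95% intervals of counts: Poisson for CPM, conditional for ratios and Clopper-Pearson for shares, tested on simulated data. No p-values are given, since each stage is 1 library and cells are not replicates. UMI depth limits genes at low levels. The naming rule took all 6 Gata genes, list members past 2-fold whose interval excludes no change, and the 3 most correlated genes. Alternatives changed the UMI, mitochondrial, doublet, resolution, scaling, averaging and thinning choices and the haemoglobin splits.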

Additional observations from a re-analysis of the deposited data

Results flagged for a closer look

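The stage ratio of a gene differed between classes for 3 members, with counting intervals on opposite sides of 0. With 1 library per stage these differences were not tested. In smooth muscle or mural-like and gonad or adrenal primordium-like cells, the ratios also mostly compare different clusters. For Gata3 the log2 ratio of E11.5 over E10.5 was 1.02 in neural crest or glia-like cells and -1.46 in smooth muscle or mural-like cells, a difference of 2.48; the first value was 0.29 with coarser clusters. For Gata4 it was 0.68 in visceral mesenchyme-like cells and -0.67 in stellate precursor-like cells, a difference of 1.35, and the first of these values changed side under other settings. For Gata6 it was 0.93 in smooth muscle or mural-like cells and -0.21 in gonad or adrenal primordium-like cells, a difference of 1.15; the first value was 0.081 with at most 5% mitochondrial UMIs.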

How the results depend on the processing

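Of 240 alternative values for 30 stage ratios, 191 stayed within the counting interval, 38 moved outside it and 11 changed sign from a ratio whose interval excludes no change. Where the interval includes no change, a change of sign was not counted as such. No paired analysis was possible because each stage has 1 library. Settings that left a class with too few cells in a library, or did not name it, gave no value, and UMI depth limits values near 1 CPM. The cause of the changes below was not tested.

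Gata1 in erythroid-like cells had a stage ratio of 0.33 with doublets kept and 0.76 over all genes. Its level was 116 and 146 CPM with doublets kept, 77.0 and 130 CPM over all genes, and at E11.5 143 CPM as a mean over cells and 160 CPM thinned. Gata6 in stellate precursor-like cells, thinned, had a ratio of -0.44 and an E11.5 level of 275 CPM. Gata4 in gonad or adrenal primordium-like cells had a ratio of -1.57 with at least 2000 UMIs and also with the Gata genes kept in the clustering, Gata3 and Gata6 in nephric-like cells had -1.27 and 1.39 with at most 5% mitochondrial UMIs, Gata3 in hepatoblast-like cells had 0.026 with that limit and 0.23 thinned, and Gata4 in smooth muscle or mural-like cells had 0.23 at resolution 0.5.

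In sympathoadrenal-like cells the Gata2 ratio was 0.18 (2000 UMIs), 0.069 (5% mitochondrial), -0.28 (resolution 0.5) and 0.98 (resolution 2), with E10.5 levels of 123, 133, 168 and 64.4 CPM, and 91.4 CPM thinned. The Gata3 ratio under the same 4 settings was -0.56, -0.78, -0.77 and 0.10, with E10.5 levels of 556, 634, 644 and 328 CPM. Gata3 at E10.5 was 456 CPM with doublets kept and 440 CPM with the Gata genes kept, and at E11.5 351 CPM at resolution 2.

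In visceral mesenchyme-like cells the Gata4 ratio was -0.083 (2000 UMIs), -0.19 (doublets kept), 0.36 (resolution 0.5) and 0.38 (Gata genes kept). Its E10.5 level was 151 and 160 CPM under the first pair of settings, and its E11.5 level 143, 140, 140 and 142 CPM. Across the haemoglobin bins, Gata2 was at -1.54 with the other splits and, in an alternative added after seeing the data, at -1.66 without cluster B12. Gata4 in sinusoidal or venous over arterial cells at E10.5 was 6.99 thinned. Gata4 and Gata6 in mesothelium-like over gonad or adrenal primordium-like cells, -6.30 and -1.70 at E11.5, were 1.17 and 0.21 with at most 5% mitochondrial UMIs.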
